A study of Mus musculus with 6 samples.

Results

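Havcr2, the gene that encodes TIM3, was described across the immune cells of mouse liver that carried experimental breast cancer metastasis. The gene was taken by its symbol, which matched 1 feature of the 1642 genes present in all 3 expression matrices and of the 5301 genes present in any of them. Single-cell RNA-seq (10x Genomics 3′ chemistry) had been made of CD45+ cells sorted from a piece of liver of Balb/c mice after intracardiac injection of 4T07 cells, a mouse mammary tumour line whose name the labels also spell 4TO7. The tumour cells carried either a scramble shRNA (Ctrl) or an shRNA against Tim3 (Tim3-KD). There were 6 libraries: liver tissue free of tumour beside the metastasis (adjacent tissue) and micrometastasis, both of day 3, and macrometastasis of day 12, each from mice with Ctrl and from mice with Tim3-KD tumour cells. No other treatment or allele of the mice is given in the labels, and the age of the mice was not used here. Every library pooled 2 mice and stood alone in its group, so groups were compared without tests or p-values. Tumour cells carried the knockdown and a CD45 sort is meant to leave them out, so the level of Havcr2 in these libraries checks neither the knockdown nor the labels. Whether tumour cells came through the sort was not tested.

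TIM3 is a receptor of the T cell immunoglobulin and mucin family. It was first known from interferon-γ-producing T cells and marks effector and exhausted CD8+ T cells, where it acts as an inhibitory receptor beside PD-1, LAG3 and TIGIT. Dendritic cells, macrophages and monocytes also carry it, and in conventional dendritic cells it restrains the uptake and sensing of nucleic acids from dying cells. Galectin-9, CEACAM1, HMGB1 and phosphatidylserine are its described ligands, and BAG6 and the kinases FYN and LCK bind its tail. The genes of 3 of these ligands (Lgals9, Ceacam1, Hmgb1) and of the receptors Pdcd1, Lag3 and Tigit were not analysed here.

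In the annotation of GRCm38, Havcr2 lies on chr11:46454935-46481255 on the plus strand, spans 26321 bases, has 8 exons in its longest transcript and overlaps no other gene. Its relatives Timd2, Havcr1 and Timd4 lie further along the same chromosome. The 250 bases before the RefSeq start of the gene are shown because the transcription factors compared below are read against them (RefSeq, GRCm38.p6, chr11:46454681-46454930, plus strand, 5′ to 3′). The capitals mark the only match of the AP-1 motif TGANTCA, to which Jun and Batf3 proteins bind.
Havcr2 promoter: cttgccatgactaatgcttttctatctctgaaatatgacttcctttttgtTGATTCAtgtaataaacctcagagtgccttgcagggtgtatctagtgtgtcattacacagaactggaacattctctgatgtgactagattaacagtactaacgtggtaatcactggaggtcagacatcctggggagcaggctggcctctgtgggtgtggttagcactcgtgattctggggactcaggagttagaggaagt
The match began 200 bases before the start, and 6.75% of 32851 mouse promoters of the same length held this motif on either strand. A match of the ETS (PU.1) motif GAGGAAG began 8 bases before the start, as in 10.6% of promoters. No match was found of the interferon regulatory factor motif (GAAA, any 2 bases, GAAA; 2.98% of promoters), the composite ETS-IRF motif (GGAA, any 2 bases, GAAA; 2.30%), the Maf motif TGCTGA (16.1%) or the NFIL3 motif TTANNTAA (5.43%). These are matches of letters and not measured binding sites.

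The 6 libraries held 23008 cells, between 542 and 5502 per library, with a median of 6300 to 10248 unique molecular identifiers (UMIs, each standing for 1 captured RNA molecule) per cell. Havcr2 had 2469 UMIs in 1460 cells. Of these, 903 cells had 1 UMI and 557 had 2 or more. Levels are given in CPM, the Havcr2 UMIs of a group of cells for each 1000000 of all their UMIs, with 95% intervals from exact Poisson limits. Ratios of levels carry exact conditional binomial limits and shares of cells exact Clopper-Pearson limits. Ratios with classes or clusters weighted alike and ratios of shares carry approximate normal limits on the log scale. All of these cover counting error only and leave out the spread between mice, which 1 library per group cannot show. A class of cells was named "X-like" from marker genes, and its clusters were made without the TIM family genes, so that Havcr2 itself did not place a cell. Libraries shared at most 11 cell barcodes per pair, or 0.224% of the smaller library.

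Free RNA in droplets can give single UMIs to cells that do not express a gene. B-like cells, which should lack TIM3, gave the background for this: 6 of 2305 cells had a Havcr2 UMI, a share of 0.260%, at a median of 4110 UMIs per cell. Endothelial-like cells, which had come through the CD45 sort, had a Havcr2 UMI in 1 of 632 cells. Shares of cells in the classes described next were well over these values, and reached 60.2% in 1 class.

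Conventional dendritic-like cells had the highest Havcr2 level of the classes compared in 4 of the 5 libraries with at least 20 of these cells, and the next to highest in the other, micrometastasis with Tim3-KD. This class (Naaa, Cst3, Clec9a and MHC class II genes) held 533 cells, had 5 of 5 measured markers of cDC1 and 5 of 6 of cDC2 at least 2-fold over other cells, and presents antigen to T cells. Its level was 68.8 CPM (49.1 to 93.7) in adjacent tissue with Ctrl, 103 CPM (89.0 to 118) in micrometastasis with Ctrl, 80.2 CPM (62.9 to 101) in micrometastasis with Tim3-KD, 83.2 CPM (72.9 to 94.6) in macrometastasis with Ctrl and 93.0 CPM (77.2 to 111) in macrometastasis with Tim3-KD. The last library, adjacent tissue with Tim3-KD, held 9 such cells with 25 Havcr2 UMIs, or 69.6 CPM. The intervals of the 6 libraries overlapped for every pair, although the ratio of macrometastasis to micrometastasis with Ctrl, 0.81 (0.668 to 0.983), and that of micrometastasis to adjacent tissue with Ctrl, 1.49 (1.06 to 2.15), left 1 out of their own intervals. Over all libraries 60.2% of its cells had a Havcr2 UMI.

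Clustering at a finer resolution split the dendritic class into 335 cDC1-like cells, the cross-presenting type, 194 cDC2-like cells and 4 macrophage-like cells. The cDC2-like levels given next include cells that resolution 1 had put elsewhere, 196 cells in all. This division was chosen after the data had been seen. Havcr2 in cDC1-like cells was 115 CPM (97.8 to 135) and 113 CPM (85.9 to 145) in micrometastasis with Ctrl and Tim3-KD, and 94.9 CPM (82.3 to 109) and 106 CPM (85.8 to 128) in macrometastasis. In cDC2-like cells the values were 74.8 CPM (55.2 to 99.2), 36.9 CPM (20.2 to 61.9), 45.7 CPM (30.9 to 65.3) and 59.6 CPM (36.9 to 91.1) in the same order. cDC1-like cells thus had the higher level in each of these 4 libraries, with intervals apart in micrometastasis with Tim3-KD and in macrometastasis with Ctrl and overlapping in the other 2. In adjacent tissue with Ctrl, 19 cDC1-like cells held 39 Havcr2 UMIs and 9 cDC2-like cells held 1.

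**Figure D1:**
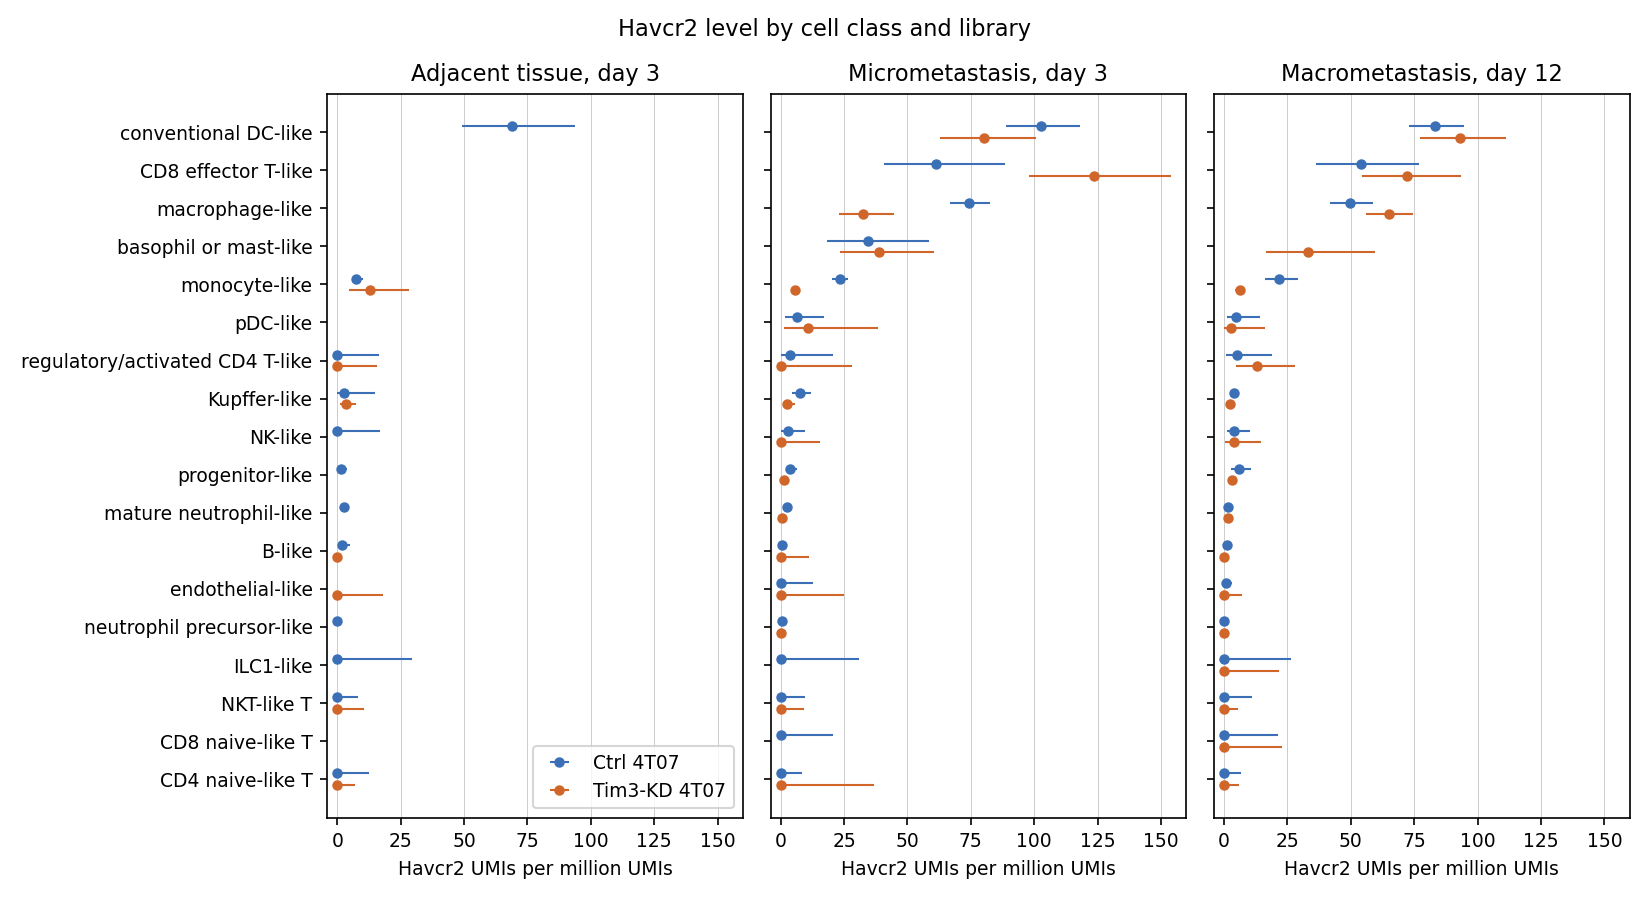
Havcr2 level in CPM by cell class and library, with exact 95% Poisson intervals for counting error, for classes with at least 20 cells in a library. Conventional dendritic-like cells lie between 68.8 and 103 CPM, CD8 effector T-like cells between 53.8 and 124 CPM, and most lymphocyte and neutrophil classes lie near 0.

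Macrophage-like cells had the level next to dendritic-like cells among the myeloid classes with at least 50 cells in 3 of the 4 metastasis libraries, but in micrometastasis with Tim3-KD basophil or mast-like cells were above them, with overlapping intervals. Their level was 74.4 CPM (66.8 to 82.7) in 424 cells of micrometastasis with Ctrl, 32.6 CPM (23.2 to 44.6) in 142 cells with Tim3-KD, 49.7 CPM (41.8 to 58.7) in 219 cells of macrometastasis with Ctrl and 64.9 CPM (56.2 to 74.7) in 246 cells with Tim3-KD. Adjacent tissue held 10 and 2 such cells and is not compared. The class was made of 2 clusters that the libraries shared unequally. Cluster c13 was led by Sdc4, Ccl24, Trem2, Spp1 and MHC class II genes, of which Trem2 and Spp1 mark lipid-associated and tumour-associated macrophages. It held 417 of the 424 cells in micrometastasis with Ctrl, against 46 of 142 with Tim3-KD, and 33 and 48 cells in macrometastasis. Cluster c17 was led by Pf4, Thbs1, Ctsl and Cxcl1 and also had the hepatocyte gene Alb among its 10 leading genes. It supplied 96 cells in micrometastasis with Tim3-KD and 186 and 198 cells in macrometastasis, but 7 in micrometastasis with Ctrl. Within c13, Havcr2 was 75.0 CPM and 46.4 CPM in micrometastasis (Ctrl, Tim3-KD) and 28.7 CPM and 74.2 CPM in macrometastasis. Within c17 it was 26.0 CPM in micrometastasis with Tim3-KD and 52.4 CPM and 62.8 CPM in macrometastasis.

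Monocyte-like cells had a lower level than macrophage-like cells in each of the 4 metastasis libraries. It was 7.57 CPM in adjacent tissue with Ctrl, 13.1 CPM (6 UMIs in 21 cells) with Tim3-KD, 23.3 CPM and 5.61 CPM in micrometastasis, and 21.8 CPM and 6.10 CPM in macrometastasis. Most of the signal lay in cluster c5 (Ms4a4c, Ccr2, Vcan, Fn1), the classical inflammatory type, with 28.8 CPM in micrometastasis with Ctrl and 16.0 CPM with Tim3-KD. Cluster c11, of cells with high totals and genes of the cell cycle such as Pclaf, had 3.22 CPM and 0.976 CPM there. The small cluster c23 (Cd36, Treml4, Ear2), with genes of patrolling monocytes, had 63.1 CPM from 20 UMIs in 49 cells of macrometastasis with Ctrl. In the 4 libraries with enough cells of both, c5 was over c11 by a ratio of 7.96 to 16.4, with every interval above 1.

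**Figure D2:**
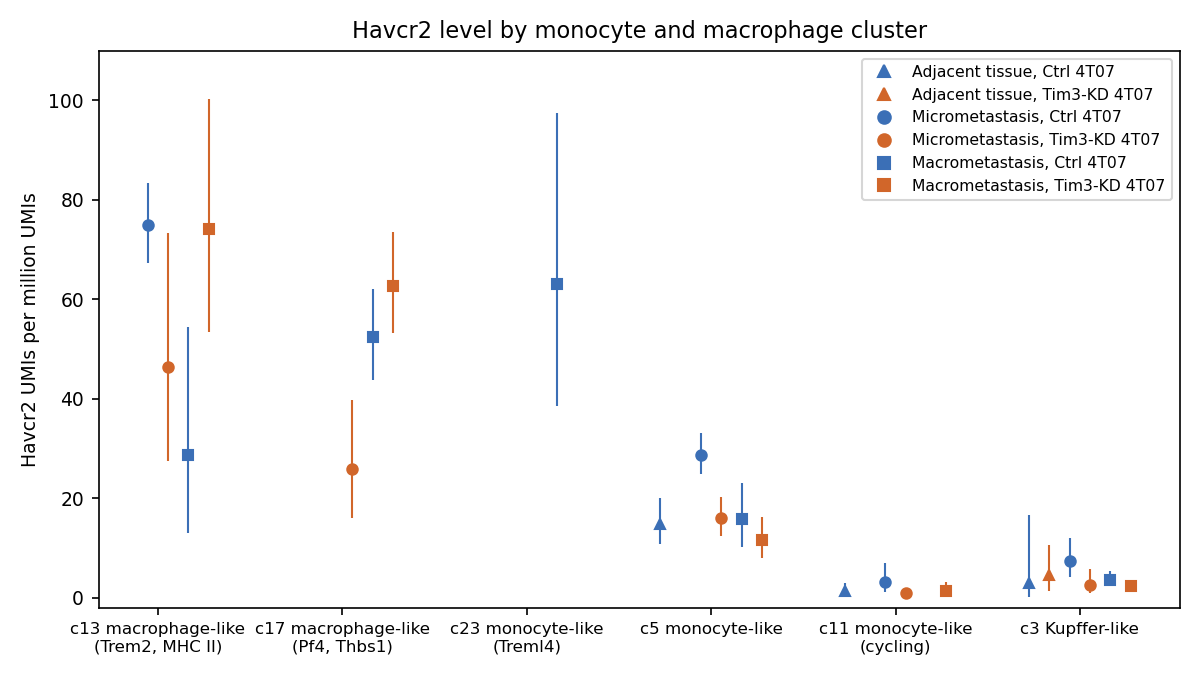
Havcr2 level in CPM within single macrophage, monocyte and Kupffer-like clusters by library, with exact 95% Poisson intervals, for clusters with at least 20 cells in a library (colour, tumour line; symbol, site). Cluster c11 of the monocyte-like class stays at or under 3.22 CPM while c5 lies between 11.7 and 28.8 CPM, and c13 of the macrophage-like class spans 28.7 to 75.0 CPM.

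Among the named T and NK classes, Havcr2 was highest in 1 cluster. CD8 effector T-like cells (Cd8a, Cd8b1, S100a4, Klrc1; 11 of 11 measured markers at least 2-fold over other cells) kill target cells and are the T cells in which TIM3 is best known. They had 61.1 CPM (40.6 to 88.3) from 28 UMIs in 78 cells of micrometastasis with Ctrl and 124 CPM (98.1 to 154) from 80 UMIs in 119 cells with Tim3-KD. In macrometastasis the level was 53.8 CPM (36.3 to 76.9) in 65 cells with Ctrl and 72.1 CPM (54.5 to 93.6) in 88 cells with Tim3-KD. Adjacent tissue with Ctrl had 9 Havcr2 UMIs in 6 such cells, and with Tim3-KD 0 in 1 cell. A Havcr2 UMI was present in 21.8% and 36.1% of these cells in micrometastasis and in 23.1% and 31.8% in macrometastasis (Ctrl, Tim3-KD). A cluster of 96 T or NK cells led by the cell cycle genes Ube2c and Birc5, which the markers left unnamed, had 26.3 to 47.7 CPM in the 4 metastasis libraries and held the cell with the most Havcr2 UMIs, 12.

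The other named T and NK classes were low. No Havcr2 UMI was found in 439 CD4 naive-like T cells, 116 CD8 naive-like T cells, 143 ILC1-like cells or 457 NKT-like T cells. Taking 3 UMIs as the limit that a count of 0 allows, these zeros leave room for up to 1.17 CPM, 3.43 CPM, 4.11 CPM and 1.14 CPM. Cells named regulatory or activated CD4 T-like had 9 UMIs in 263 cells and NK-like cells 8 UMIs in 495 cells, or 5.27 CPM (2.41 to 10.0) and 2.88 CPM (1.24 to 5.67) over all libraries. The regulatory or activated CD4 T-like level was highest in macrometastasis with Tim3-KD, at 12.9 CPM (4.72 to 28.0) from 6 UMIs. An unnamed cluster of 136 cells among the T and NK cells, led by the B cell genes Igkc and Cd79a and by MHC class II genes, had 105 CPM from 10 UMIs in 12 cells of micrometastasis with Ctrl, 15.7 CPM from 2 UMIs in 20 cells of micrometastasis with Tim3-KD, 22.3 CPM in 27 cells of macrometastasis with Ctrl and 9.97 CPM in 68 cells with Tim3-KD. In the last of these libraries monocyte-like cells had 6.10 CPM. The contrast between the effector and the naive CD8 cells was from 80.9 CPM (70.2 to 92.9) to a limit of 3.43 CPM.

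Basophil or mast-like cells (Mcpt8, Prss34, Cyp11a1, Gata2) formed a small class with a clear signal. Their level was 34.3 CPM (18.2 to 58.6) in 34 cells of micrometastasis with Ctrl, 38.8 CPM (23.3 to 60.5) in 52 cells with Tim3-KD and 33.2 CPM in 34 cells of macrometastasis with Tim3-KD. The 3 libraries could not be told apart by their intervals, and 28.0% of the 143 cells had a Havcr2 UMI. Kupffer-like cells, the resident macrophages of the liver, were low in every library, at 2.29 to 7.69 CPM, and 3.25% of 2404 cells had a UMI. Plasmacytoid dendritic-like cells had 2.90 to 10.6 CPM and haematopoietic progenitor-like cells 1.31 to 5.79 CPM. Mature neutrophil-like cells, the largest class with 7146 cells, had 0.545 to 2.52 CPM, and neutrophil precursor-like cells 0 to 0.337 CPM despite a median of 28494 UMIs per cell.

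The order of the classes could be read only in part. In micrometastasis with Ctrl the dendritic level was over the macrophage level by a ratio of 1.38 (1.15 to 1.65), the next neighbours (macrophage, CD8 effector T, basophil or mast and monocyte-like) each had ratios whose interval included 1, and monocyte-like cells stood over Kupffer-like cells by 3.02 (1.89 to 5.13). In micrometastasis with Tim3-KD, CD8 effector T-like cells were first, over dendritic-like cells by 1.54 (1.11 to 2.15), and these over basophil or mast-like cells by 2.07 (1.24 to 3.63). In macrometastasis with Ctrl the dendritic level was over that of CD8 effector T-like cells by 1.55 (1.05 to 2.34), CD8 effector T-like and macrophage-like cells did not differ beyond counting error, and macrophage-like cells were over monocyte-like cells by 2.28 (1.63 to 3.25). The change of the leading class between both micrometastasis libraries is a description of 2 libraries.

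Because a deeper cell is more likely to show a UMI, each cell was also thinned to 1500 UMIs, which kept all cells. The thinned share of dendritic-like cells with a Havcr2 UMI was 7.41% in adjacent tissue with Ctrl. In micrometastasis it was 8.45% with Ctrl and 7.29% with Tim3-KD, and in macrometastasis 9.36% and 13.6%. For macrophage-like cells it was 9.91% and 4.23% in micrometastasis and 7.31% and 7.72% in macrometastasis, and for CD8 effector T-like cells 10.3% and 11.8%, then 4.62% and 6.82%. Unthinned, the dendritic shares of the same 5 libraries were 59.3%, 66.9%, 44.8%, 60.8% and 62.5%. At equal depth the dendritic, macrophage and CD8 effector classes thus lay between 4.23% and 13.6%, and B-like cells had 0.0868%.

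Each library's Havcr2 came from a different mix of cells. In micrometastasis with Ctrl, macrophage-like cells held 39.3% of all Havcr2 UMIs, and dendritic-like and monocyte-like cells 22.97% each. With Tim3-KD the macrophage share there was 11.8%, and CD8 effector T-like (24.2%), monocyte-like (22.7%) and dendritic-like cells (22.4%) held about equal parts. In macrometastasis with Ctrl, dendritic-like cells led with 42.5%, before macrophage-like cells with 25.4%. With Tim3-KD the order was turned, with 36.9% in macrophage-like and 22.8% in dendritic-like cells. In adjacent tissue with Ctrl, monocyte-like cells held 35.7% and dendritic-like cells 28.0%. In adjacent tissue with Tim3-KD, 9 dendritic-like cells held 65.8% of 38 UMIs. The classes dendritic, macrophage, monocyte, CD8 effector T and basophil or mast-like together held 80.4% to 89.9% of the Havcr2 UMIs of a library.

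**Figure D3:**
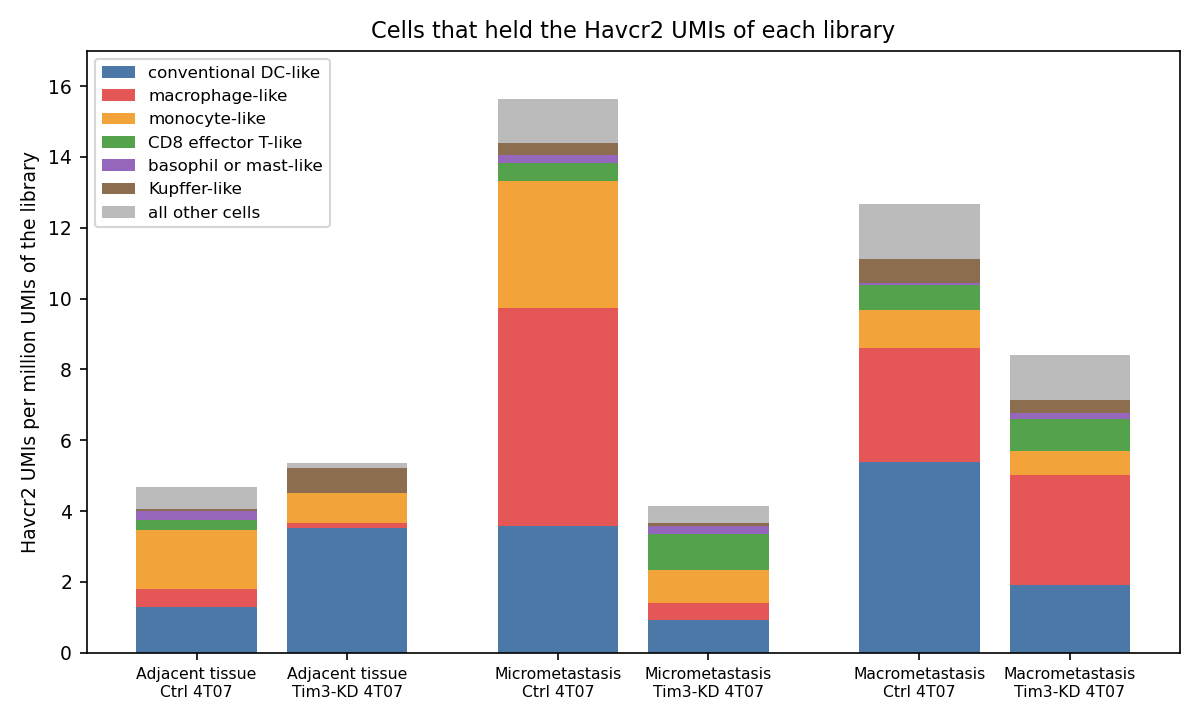
Havcr2 UMIs in CPM of the whole library, stacked by the cell class they came from, for the 6 libraries. The bar of micrometastasis with Ctrl reaches 15.6 CPM, of which the macrophage-like part is the largest, and the bar with Tim3-KD reaches 4.14 CPM.

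Over all cells of a library, Havcr2 was 15.6 CPM (14.6 to 16.7) in micrometastasis with Ctrl and 4.14 CPM (3.71 to 4.61) with Tim3-KD, a ratio of 0.265 (0.233 to 0.301). In this comparison 18.1% of 2669 genes were at least 2-fold lower with Tim3-KD and 0.749% at least 2-fold higher, and 3.97% of the genes had a ratio at or under that of Havcr2. The median gene had a log2 ratio of −0.43, and Havcr2 of −1.92. In macrometastasis the levels were 12.7 CPM (11.6 to 13.8) and 8.42 CPM (7.72 to 9.17), a ratio of 0.664 (0.588 to 0.749), where 10.6% of genes were at least 2-fold lower and 2.27% at least 2-fold higher. In adjacent tissue they were 4.67 CPM (3.94 to 5.50) and 5.36 CPM (3.80 to 7.36), a ratio of 1.15 (0.781 to 1.65). The adjacent value rested on few cells: without cells of a doublet score over 0.15, which takes out all 9 dendritic-like cells of the Tim3-KD library, it was 0.378, and a mean over cells gave 0.661, so that the direction was not settled.

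The share of cells with a Havcr2 UMI was 10.0% and 4.42% in micrometastasis, 6.23% and 5.62% in macrometastasis and 4.88% and 3.32% in adjacent tissue (Ctrl, Tim3-KD). Giving every cell the same weight, rather than every UMI, moved the ratio of micrometastasis to 0.522 and that of macrometastasis to 0.953. Scaling by a trimmed mean over genes gave 0.359 and 0.80. The lower level in micrometastasis with Tim3-KD was thus present under each scaling, with its size between 0.265 and 0.522.

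The mix of cells also differed between the libraries. In micrometastasis and macrometastasis the ratio lay nearer 1 when the mix was held alike. Of the 11.5 CPM by which the micrometastasis libraries differed, cluster c13 alone held 51.5%, as it made up 8.17% of cells with Ctrl and 0.895% with Tim3-KD. The dendritic class held 23.2% and the monocyte class 23.1% of the difference, and CD8 effector T-like cells added 0.50 CPM with Tim3-KD. Without cluster c13, a choice made after seeing the data, the ratio was 0.381 (log2 −1.39). With the classes weighted alike in both libraries, by their share of UMIs with Ctrl, it was 0.535 (0.460 to 0.622), and with clusters in place of classes 0.674 (0.554 to 0.821). In macrometastasis the ratio at equal weights was 1.05 (0.922 to 1.19). There 81.4% of the difference of 4.26 CPM was in the dendritic class, which made up 3.48% of cells with Ctrl and 1.60% with Tim3-KD. In adjacent tissue the ratio at Ctrl weights was 1.04 (0.587 to 1.83) with classes and 0.561 (0.358 to 0.881) with clusters. The classes and clusters present in both libraries there covered only 49.0% and 36.4% of the UMIs with Ctrl. At Tim3-KD weights the ratio was 0.843 with classes and 0.808 with clusters. Shares of cells from 1 sorted piece of tissue per library have no replicate, and what set them was not tested.

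Within classes, the ratio of Tim3-KD to Ctrl went in different directions in micrometastasis. In CD8 effector T-like cells Havcr2 was higher with Tim3-KD by a ratio of 2.03 (1.30 to 3.24). The ratio lay between 1.97 and 2.39 under the alternative scalings, filters and clusterings. As UMIs of 1 cell are not independent, the share of positive cells is the more cautious measure, and its ratio was 1.66 unthinned, with a log2 interval of 0.032 to 1.43. After thinning, the ratio of shares was 1.15 with an interval that included 1. In dendritic-like cells the ratio of levels was 0.780 (0.589 to 1.02) and in basophil or mast-like cells 1.13 (0.530 to 2.49), both with intervals that included 1. Leaving out the cells whose deposited value was at its upper limit moved the basophil or mast-like ratio to 2.08.

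Markers of other cells inside the CD8 effector T-like class were summed over whole lists. In micrometastasis the 14 measured macrophage markers summed to 406 CPM with Ctrl and 1287 CPM with Tim3-KD, with 2 and 0 of them at 0 UMIs, and the 20 Kupffer markers to 194 CPM and 373 CPM. The 5 cDC1 markers summed to 127 CPM and 113 CPM and the list of the CD8 effector class itself to 30639 CPM and 24217 CPM. The macrophage and Kupffer sums moved with Havcr2 between these libraries, and their part in the result was not tested. The 6 measured cDC2 markers include S100a4, a leading gene of the CD8 effector cluster, so their sum also holds a gene of these cells themselves. They summed to 2507 CPM and 3194 CPM in these cells, above the 988 CPM and 1291 CPM of the dendritic class. With Ctrl 3 of them were at 0 UMIs and with Tim3-KD 1, and their part in the result was not tested.

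In 5 further classes of micrometastasis the ratio was under 1 with an interval that left 1 out. It was 0.438 (0.306 to 0.612) in macrophage-like cells, where c13 held most cells with Ctrl and c17 most with Tim3-KD, and 0.619 (0.362 to 0.992) within c13. With classes called cell by cell from the marker lists it was 0.80, with a log2 interval of −1.27 to 0.59 that included 0. The sums of other lists in macrophage-like cells also differed, with Kupffer markers at 5326 CPM (Ctrl) and 11515 CPM (Tim3-KD) and 5 hepatocyte markers at 447 CPM and 1107 CPM. The macrophage list itself summed to 4698 CPM and 14347 CPM and the mature neutrophil list to 332 CPM and 868 CPM. The monocyte list (6461 CPM and 5615 CPM) and the B list (67.3 CPM and 23.4 CPM) went the other way. The part of all these lists in the result was not tested. In monocyte-like cells the ratio was 0.241 (0.183 to 0.316), 0.370 as a mean over cells, and 0.555 (0.414 to 0.738) within cluster c5 and 0.303 (0.0963 to 1.03) within c11, which held 330 cells with Tim3-KD and 66 with Ctrl. Markers of other cells in the monocyte-like class also differed there: the Kupffer list summed to 370 CPM (Ctrl) and 158 CPM (Tim3-KD), the hepatocyte list to 308 CPM and 133 CPM and the CD8 effector list to 615 CPM and 305 CPM. The cDC2 list summed to 2097 CPM and 1307 CPM, but it holds S100a4, a leading gene of monocyte cluster c5. The macrophage list summed to 796 CPM and 755 CPM and the monocyte list itself to 8068 CPM and 5733 CPM, and the part of these markers in the result was not tested. Kupffer-like cells had a ratio of 0.341 (0.111 to 0.888), haematopoietic progenitor-like cells 0.343 (0.116 to 0.926) and mature neutrophil-like cells 0.217 (0.0725 to 0.545), each at a low level. In these last 3 classes the level with Ctrl was at most 7.69 CPM, and the part of free RNA in it, from a library with more Havcr2 in other cells, was not tested. Plasmacytoid dendritic-like cells had a ratio of 1.60 from 2 and 4 UMIs neutrophil precursor-like cells 0.349 and the unnamed T or NK cells 0.930, all with intervals that included 1.

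In macrometastasis fewer ratios left 1 out of their interval. Macrophage-like cells had more Havcr2 with Tim3-KD, by 1.31 (1.05 to 1.63), which was 2.59 (1.24 to 6.05) within c13 and 1.2 (0.944 to 1.53) within c17, and 2.02 with classes called cell by cell. Monocyte-like cells had less, by 0.280 (0.181 to 0.432), but the clusters of the class differed in size: c11 held 6 cells with Ctrl and 106 with Tim3-KD, and c23 held 49 and 5. Within cluster c5 the ratio was 0.740 (0.431 to 1.29), and with classes called cell by cell 0.738, with a log2 interval of −0.93 to 0.069 that included 0. Several lists of other cells in the monocyte-like class were also lower with Tim3-KD, whereas the macrophage list was 619 CPM (Ctrl) and 726 CPM (Tim3-KD) and the cDC1 list 485 CPM and 507 CPM. The mature neutrophil list summed to 1119 CPM (Ctrl) and 395 CPM (Tim3-KD), the hepatocyte list to 418 CPM and 202 CPM and the Kupffer list to 402 CPM and 250.3 CPM. Their part in the result was not tested. The ratio was 1.34 (0.845 to 2.16) in CD8 effector T-like cells, and 0.732 at the finer resolution, with a log2 interval of −2.41 to 1.34 that included 0. It was 1.12 (0.890 to 1.40) in dendritic-like cells, 0.606 (0.338 to 1.08) in Kupffer-like cells and 0.818 in mature neutrophil-like cells. In adjacent tissue the monocyte ratio of 1.73 (0.605 to 4.02) came from 6 UMIs with Tim3-KD. Within cluster c5 it was 0.47 (0.0934 to 1.47) there, on the other side of 1. Cluster c11 held 78 cells with Ctrl and 0 with Tim3-KD at this site, and c23 held 3 of the 6 UMIs.

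**Figure D4:**
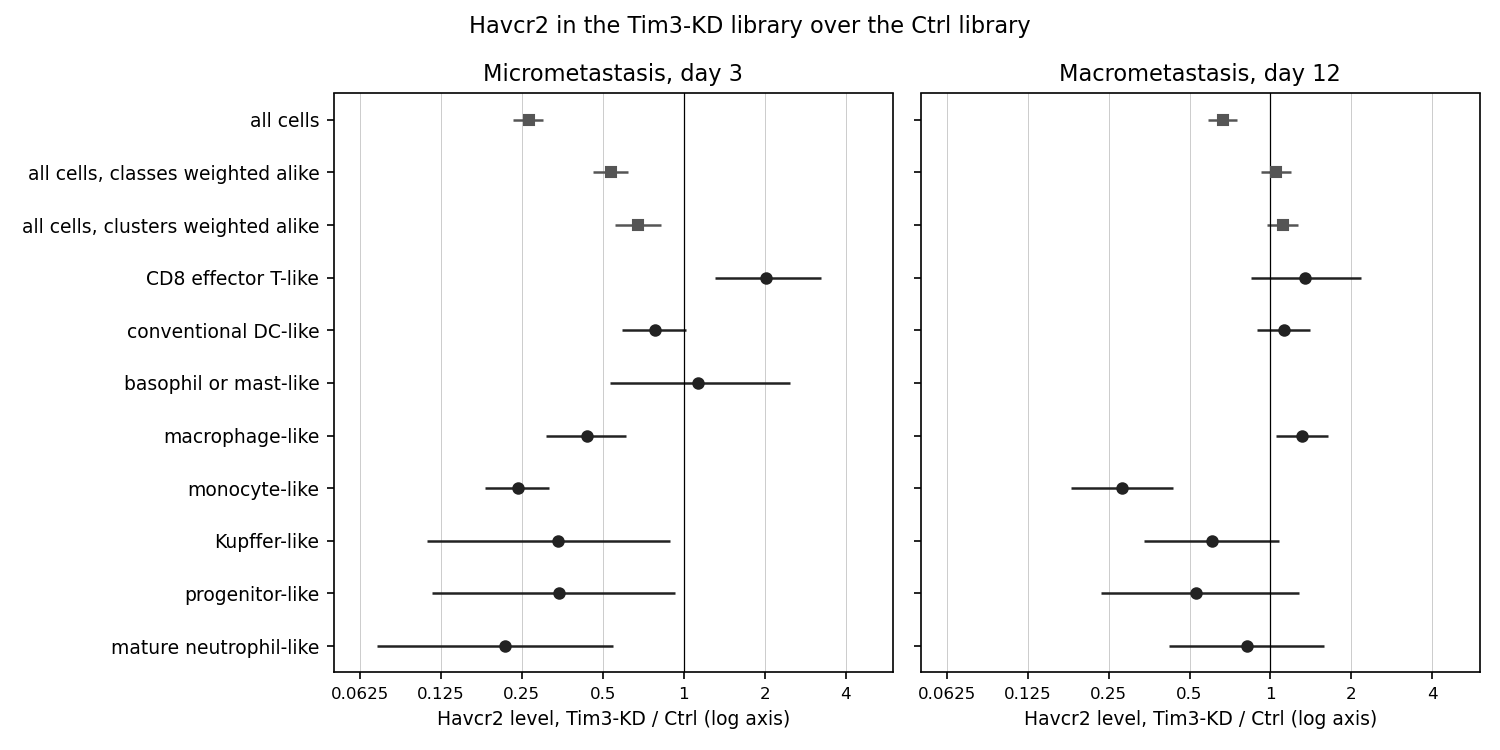
Ratio of the Havcr2 level with Tim3-KD to that with Ctrl by class and site, on a log axis, with exact 95% conditional binomial intervals for counting error. The rows with classes or clusters weighted alike carry approximate normal limits instead. In micrometastasis CD8 effector T-like cells lie at 2.03 and monocyte-like cells at 0.241, and in macrometastasis macrophage-like cells lie at 1.31.

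The 3 Ctrl libraries compare sites. Havcr2 over all cells was 3.35-fold (2.80 to 4.02) higher in micrometastasis and 2.72-fold (2.26 to 3.29) higher in macrometastasis than in adjacent tissue, and macrometastasis had 0.811 (0.728 to 0.903) of the level of micrometastasis. The ratio of macrometastasis to adjacent tissue was 1.54 with trimmed-mean scaling and 1.6 as a mean over cells. Adjacent tissue and micrometastasis share day 3, whereas macrometastasis differs in both site and day, which cannot be told apart. Within monocyte-like cells micrometastasis had 3.07 times (2.25 to 4.26) and macrometastasis 2.88 times (1.90 to 4.37) the level of adjacent tissue. The clusters c5, c11 and c23 held 171, 78 and 6 of these cells at the adjacent site. They held 627, 66 and 3 in micrometastasis, against 153, 6 and 49 in macrometastasis, and within c5 the level was 14.9 CPM, 28.8 CPM and 15.8 CPM, so that macrometastasis was close to adjacent tissue there. Of the lists of other cells in the monocyte-like class of these Ctrl libraries, several were lowest in adjacent tissue too, whereas the B list was lowest in micrometastasis (109 CPM, 84.8 CPM and 169.8 CPM). In the order adjacent tissue, micrometastasis and macrometastasis, the Kupffer list summed to 147 CPM, 370 CPM and 402 CPM, the hepatocyte list to 155 CPM, 308 CPM and 418 CPM and the mature neutrophil list to 282 CPM, 513 CPM and 1119 CPM. What part they had in the site ratios was not tested. Within dendritic-like cells these ratios were 1.49 (1.06 to 2.15) and 1.21 (0.862 to 1.74). Mature neutrophil-like cells had a ratio of 0.998 in micrometastasis. Among the Tim3-KD libraries the ratios over all cells were 0.772 (0.551 to 1.11) for micrometastasis and 1.57 (1.13 to 2.24) for macrometastasis to adjacent tissue, and 2.03 (1.77 to 2.34) for macrometastasis to micrometastasis. These directions depended on the weighting: as a mean over cells the level with Tim3-KD was 0.0381 Havcr2 UMIs per 10000 at the adjacent site, against 0.0885 for micrometastasis and 0.0878 for macrometastasis, so that both metastasis libraries were above adjacent tissue and were close to each other. The thinned shares of positive cells, 0.953% and 0.927%, were also close in the metastasis libraries. The thinned share at the adjacent site was 1.11% (0.407% to 2.39%), above both, with an interval that held both. The adjacent level rested on the 9 dendritic-like cells with 25 of its 38 UMIs. From micrometastasis to macrometastasis, CD8 effector T-like cells had ratios of 0.881 (0.509 to 1.53) with Ctrl and 0.583 (0.407 to 0.830) with Tim3-KD. In the latter pair the macrophage list in these cells was 1287 CPM and 525 CPM and the CD8 effector list itself 24217 CPM and 12423 CPM, and their part was not tested. Macrophage-like cells had ratios of 0.668 (0.545 to 0.816) with Ctrl and 1.99 (1.41 to 2.88) with Tim3-KD, with the unequal parts of c13 and c17 given above. Within this class, from micrometastasis to macrometastasis with Ctrl, the hepatocyte list went from 447 CPM to 1725 CPM and the Kupffer list from 5326 CPM to 9460 CPM. With Tim3-KD they went from 1107 CPM to 1359 CPM and from 11515 CPM to 8507 CPM, and their part was not tested either.

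Timd4, which encodes TIM4, a phosphatidylserine receptor of resident macrophages, is the other member of the family in the matrices. Its highest level lay elsewhere than that of Havcr2: Kupffer-like cells had 579 to 792 CPM in the 6 libraries. Monocyte-like cells had at most 4.35 CPM, with 0 UMIs in 255 cells of adjacent tissue with Ctrl. Classes high in Havcr2 held Timd4 too. In macrometastasis Timd4 was 45.5 CPM and 43.1 CPM in macrophage-like and 26.3 CPM and 14.6 CPM in dendritic-like cells (Ctrl, Tim3-KD). Of dendritic-like cells with a Timd4 UMI, 23 of 28 in macrometastasis with Ctrl also had a Havcr2 UMI. In micrometastasis with Tim3-KD 1 of 8 did. These were the highest and lowest shares of the metastasis libraries. Over whole libraries Timd4 was 10.1 CPM and 163 CPM in adjacent tissue, 28.1 CPM and 17.4 CPM in micrometastasis and 125 CPM and 121 CPM in macrometastasis (Ctrl, Tim3-KD). The high adjacent value with Tim3-KD came with 106 Kupffer-like cells of 542, against 31 of 1803 with Ctrl. Havcr2 had 4.67 CPM and 5.36 CPM in the same pair.

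A list of genes of the TIM3 pathway was compared in the same way over whole libraries, with Havcr2 itself left out of the counts. In micrometastasis 11 of 21 measured genes were at least 2-fold lower with Tim3-KD, 0 were at least 2-fold higher, and the median ratio was 0.492, beside 18.1% of all genes lower. Among signalling partners, the kinase genes Fyn (0.387) and Lck (0.449) were lower and Zap70 had 0.584. Among phosphatidylserine receptors, Axl had 0.487 and Stab2 0.385, while Mertk had 1.75. Among inhibitory receptors, Btla had 0.269, Cd244a 0.492, Ctla4 0.519 and Cd160 0.858, and the PD-1 ligand gene Cd274 had 0.695. Among transcription factors described for TIM3 expression, Batf3 had 0.186, Prdm1 0.325, Maf 0.466, Irf8 0.581, Jun 0.631 and Tox 0.884. Batf3, needed for cDC1, thus had a lower ratio than Havcr2 in the same pair of libraries. Batf3 also had a high level in macrophage-like cells with Ctrl there, 141 CPM, against 33.5 CPM with Tim3-KD.

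In macrometastasis 6 of 23 measured genes of the list were at least 2-fold lower with Tim3-KD and 0 higher, with a median ratio of 0.765, beside 10.6% of all genes lower. The lower genes were Fyn (0.497), Mertk (0.388), Gas6 (0.40), Stab1 (0.378), Stab2 (0.375) and Jun (0.456). Mertk is a receptor of macrophages that clears dying cells, Gas6 its bridging ligand, and Stab1 and Stab2 are scavenger receptors of liver sinusoidal endothelium, of which 346 endothelial-like cells were in the Ctrl library and 133 in the Tim3-KD library. In adjacent tissue 19 of 27 genes were at least 2-fold higher, 3 lower, with a median ratio of 3.13, where 33.9% of all genes were at least 2-fold higher and 9.26% lower. Cd300lf (0.190), Nfil3 (0.309) and Cd244a (0.429) were lower there. Neutrophil precursor-like cells numbered 353 in adjacent tissue with Ctrl and 0 with Tim3-KD, so the totals of both libraries came from different cells.

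Inside CD8 effector T-like cells of micrometastasis, where Havcr2 was higher with Tim3-KD, other genes of T cell exhaustion had these levels. Tox, a regulator of the exhausted state, had 120 CPM (90.4 to 156) with Ctrl and 175 CPM (144 to 210) with Tim3-KD. Ctla4 had 321 CPM (271 to 377) and 268 CPM (229 to 310), Cd160 had 113 CPM (84.7 to 149) and 141 CPM (113 to 173), and Prdm1 had 28.4 CPM and 34.0 CPM. The intervals of these 4 genes overlapped between both libraries.

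Cells with and without a Havcr2 UMI were compared within a class and library for the pathway genes in all matrices. With both genes read from cells thinned to 1500 UMIs, 2 pairs of class and library had enough positive cells, and 0 of 20 comparisons had intervals apart. With Havcr2 status read from all UMIs of a cell, an alternative added after seeing the data, 6 of 180 comparisons in 18 pairs of class and library had intervals apart. Irf8, which directs dendritic cell development, was detected in more Havcr2-positive than Havcr2-negative dendritic-like cells, in 69.8% against 32.1% in micrometastasis with Tim3-KD, 75.0% against 43.3% in macrometastasis with Ctrl and 63.6% against 30.3% with Tim3-KD. Within cDC1-like cells alone the Irf8 intervals overlapped in each library that had enough cells. The other 3 were Batf3 in Kupffer-like cells of macrometastasis with Tim3-KD (34.8% against 12.7%), Cd244a in monocyte-like cells of micrometastasis with Tim3-KD (11.5% against 2.00%) and Irf8 in mature neutrophil-like cells of micrometastasis with Ctrl, where it rested on 2 of 22 positive cells. In CD8 effector T-like cells, Ctla4 was detected in 30.2% of positive and 30.3% of negative cells in micrometastasis with Tim3-KD, with overlapping intervals, as they were in macrometastasis with Tim3-KD. Positive cells were deeper in total UMIs there (median 5955 against 3720 and 11315 against 6094), which the thinning of the second gene levels out but the status of Havcr2 keeps.

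The genes most like Havcr2 were taken by Pearson's r of log2(CPM + 5) over 63 points, each a class in a library with at least 50 cells, among 1631 genes. The points share libraries and depth, so r is a description. The first 10 were Avpi1 (r = 0.73), Mcub (0.72), Rbpj (0.69), Emp1 (0.67), Nr4a2 (0.66), Bcl2a1a (0.64), Alcam (0.63), Itgax (0.63), Agpat4 (0.62) and S100a4 (0.62). Itgax encodes CD11c, an integrin of dendritic cells, Rbpj the transcription factor of Notch signalling, Nr4a2 a nuclear receptor induced by stimulation, and Mcub a subunit of the mitochondrial calcium uniporter. Bcl2a1a has near-identical copies, so the split of its reads is uncertain. Avpi1 was highest in dendritic-like cells, at 166 to 209 CPM, and had 21.7 to 46.0 CPM in macrophage-like, 19.6 to 28.3 CPM in CD8 effector T-like and 1.77 to 7.93 CPM in B-like cells. Rbpj had 65.0 to 97.8 CPM in dendritic-like, 46.7 to 95.6 CPM in macrophage-like and 66.4 to 100 CPM in CD8 effector T-like cells, against 9.16 to 17.6 CPM in B-like cells. Nr4a2 was highest in CD8 effector T-like cells, at 178 to 275 CPM. With Spearman's rho 3 of the 10 stayed among the first 10 and 9 among the first 50, and with the 36 points of the Ctrl libraries 6 stayed. Of these 10 genes, 4 held the AP-1 motif TGANTCA in at least 1 of their listed promoters. The ETS motif was held by 2 genes, the ETS-IRF motif by 1 and the IRF, Maf or NFIL3 motif by 0. A gene can have more than 1 listed promoter, so these counts cannot be set against the shares of single promoters given above.

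**Figure D5:**
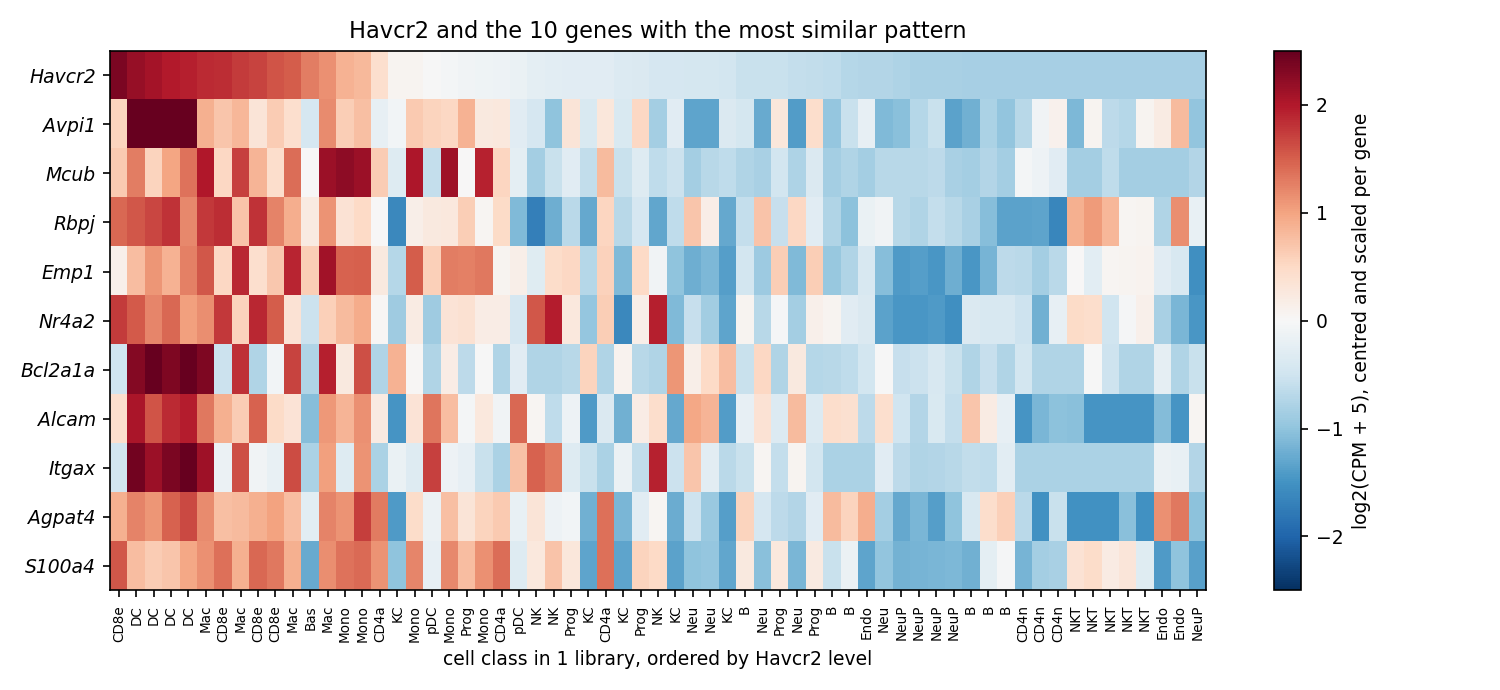
Heat map of Havcr2 and the 10 genes of highest Pearson's r with it. Columns are the 63 points, ordered by the Havcr2 level (DC, conventional dendritic; Mac, macrophage; CD8e, CD8 effector T; Bas, basophil or mast; Mono, monocyte; KC, Kupffer; Prog, progenitor; Neu and NeuP, mature neutrophil and precursor; CD4a and CD4n, activated and naive CD4 T), rows are genes, and the colour is log2(CPM + 5) centred and scaled within each gene; the columns of dendritic, macrophage and CD8 effector T-like cells lie at the high end.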

How the data were processed

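Per the labels and the study's methods, the authors trimmed reads (Trim Galore 0.4.3), mapped them with STAR 2.7.7a to GRCm38, counted UMIs over exons and introns, filtered cells and removed doublets before deposit. The deposited values are scaled scores: log1p of UMIs per 10000, the total regressed out, an SD of 1 and an upper limit of 10, both libraries of a site together. Since the planned intervals need counts, each score was turned back into UMIs. The share of recovered values that lay within 0.05 UMIs of a whole number was 99.9997%, 99.9999% and 99.9969% in adjacent tissue, micrometastasis and macrometastasis (Havcr2: 100%). Scores were also simulated for adjacent tissue (4486 genes, 2345 cells) under the same model. There the inversion returned 100% of the counts that were above 0 and not at the upper limit. That run checks the inversion and cannot show that the deposited scores follow the model. Havcr2 was at the limit in 5 cells, which hold lower bounds.

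Cells of all libraries were clustered (scanpy 1.11.5, leidenalg 0.10.2, resolution 1) on the 1642 shared genes without the TIM family, and T and NK clusters again among themselves. Clusters were named from marker lists, 452 T or NK cells stayed unnamed, and the split of cDC1 from cDC2, not made at this resolution, was merged. That NKT-like naming needs a marker besides Tmem176a and Tmem176b was set after seeing the data. A class may not match the study's class of that name. Named genes were Havcr2, every pathway gene measured and the 10 most alike; 1 pathway gene is counted with its list but not reported here. The members and lists were chosen with earlier results of these data known. A gene was called past 2-fold.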

Additional observations from a re-analysis of the deposited data

Results flagged for a closer look

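Havcr2 in macrophage-like cells differed in direction between the sites: the ratio of Tim3-KD to Ctrl was 0.438 in micrometastasis and 1.31 in macrometastasis. Within cluster c13 of this class it was 0.619 in micrometastasis and 2.59 in macrometastasis. With classes called cell by cell it was 0.80 in micrometastasis, where the interval included 1, and 2.02 in macrometastasis. CD8 effector T-like cells of micrometastasis had a ratio of 2.03, opposite to the macrophage, monocyte, Kupffer, progenitor and neutrophil-like cells of the same libraries. Macrophage-like cells of macrometastasis, at 1.31, were opposite to the monocyte-like cells there (0.280), whose clusters differed between the libraries. Within monocyte cluster c5 the ratio there was 0.740 (0.431 to 1.29), an interval that included 1. These values were singled out because their counting intervals lie on opposite sides of 1. With 1 library per group the differences between sites or classes were not tested.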

How the results depend on the processing

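No paired analysis was possible because each group has 1 library. For the same reason no replicate could be left out. Of 234 values recomputed, 199 stayed within their counting interval and 35 moved. Of those ratios whose interval left 1 out, 0 changed sign, but site ratios among Tim3-KD libraries were not recomputed. Holding the mix of cells alike was counted as a result of its own. With it the macrometastasis ratio over all cells, 0.664, became 1.05 with classes and 1.11 with clusters at Ctrl weights, on the other side of 1. At Tim3-KD weights it was 0.873 and 1.02, and each of these intervals included 1. Ratios whose interval included 1 also changed sign. Among them were all cells of adjacent tissue, CD8 effector T-like and neutrophil-like cells of macrometastasis, and adjacent tissue and macrometastasis with classes weighted alike. The log2 ratios that follow are of Tim3-KD to Ctrl unless stated, and the causes were not tested. Over all cells, a mean over cells gave −0.60, −0.94 and −0.070 (adjacent tissue, micrometastasis, macrometastasis) and trimmed-mean scaling −0.39, −1.48 and −0.32. Without doubtful doublets adjacent tissue gave −1.40, and without c13 micrometastasis −1.39. Against adjacent tissue with Ctrl, trimmed-mean scaling gave 1.44 for micrometastasis and 0.62 for macrometastasis, and the mean over cells 0.68 for macrometastasis. At resolution 2, CD8 effector T-like cells of macrometastasis gave −0.45 and monocyte-like cells of micrometastasis −1.64. Classes called cell by cell gave −0.32 and 1.01 for macrophage-like cells (micrometastasis, macrometastasis) and −0.44 for monocyte-like cells of macrometastasis, where the interval then included 0. Within single clusters, c13 gave −0.69 and 1.37, c5 −0.85 and −0.43 (micrometastasis, macrometastasis) and c0, of neutrophil-like cells, 1.56 in macrometastasis; a mean over cells gave −1.44 for monocyte-like cells of micrometastasis. With clusters weighted alike, adjacent tissue gave −0.83 and micrometastasis −0.57, and Tim3-KD weights gave −0.20 for macrometastasis. The share of Havcr2 UMIs in the 5 leading classes became 79.0% (adjacent tissue with Ctrl, mean over cells), 45.5% (adjacent tissue with Tim3-KD, without doubtful doublets), 72.5%, 78.4% and 70.8% (resolution 2; micrometastasis with Tim3-KD, macrometastasis with Ctrl and with Tim3-KD), and 66.4% and 67.6% (cell by cell; macrometastasis with Ctrl and Tim3-KD). Of the 10 alike genes 3 stayed by Spearman's rho and 6 with Ctrl libraries only. Reading Havcr2 status from all UMIs, added after seeing the data, gave 6 combinations with intervals apart.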
